A study of Homo sapiens with 22 samples.

Results

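ATF4 and 6 genes it is known to switch on or act with (ATF3, ATF5, DDIT3, TRIB3, CHAC1 and ASNS) were followed in the leukaemia line Kasumi-1 with FIP1L1 knocked down. These 7 genes were chosen by symbol, matched to Ensembl IDs and read from the RNA-seq count table, where all 7 were found among 48162 IDs and all 7 passed the filter on low counts that left 15834 genes for testing. Kasumi-1 is a human cell line from acute myeloid leukaemia, in which RUNX1 is fused to RUNX1T1, and FIP1L1 is a subunit of the complex that cuts and tails pre-mRNA. The groups were 4 libraries with lentiviral FIP1L1 shRNA 2, 4 with lentiviral FIP1L1 shRNA 1 and 4 with a lentiviral control shRNA (shControl). Cells of all 3 groups were grown in RPMI with FBS, transduced and selected with puromycin. The labels call the replicates biological without saying whether transductions were separate, so the p-values cover variation among these libraries, which may be technical.

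ATF4 is the transcription factor at the end of the integrated stress response. Kinases that sense amino acid shortage, unfolded protein in the endoplasmic reticulum, haem shortage or double-stranded RNA phosphorylate the initiation factor eIF2, general translation slows, and short upstream reading frames let the ATF4 mRNA be translated. As a protein, ATF4 pairs with C/EBP and other bZIP proteins on C/EBP-ATF response elements. Much of this control acts on translation, and RNA-seq counts report mRNA only.

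Known response elements were looked for in the 250 bases before each RefSeq gene start (GRCh38.p14). They were chosen because ATF4 and related stress factors are known to act through elements of these kinds. The core of the C/EBP-ATF element, TGATGNAA, was searched on both strands and is in capitals here, within 30 bases read 5′ to 3′ on the gene's strand:
CHAC1: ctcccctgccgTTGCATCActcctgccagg
ASNS: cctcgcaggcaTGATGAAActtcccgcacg
ATF3: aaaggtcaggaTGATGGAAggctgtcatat
The CHAC1 stretch is chr15:40953251-40953280 on the plus strand and carries the core on the opposite strand. The ASNS stretch is chr7:97872458-97872487 on the minus strand, with the core 68 to 61 bases before the start. The ATF3 stretch is chr1:212565205-212565234 on the plus strand. All 7 genes had a window, and 3 of 7 held this core, as did 3.14% of all 35116 windows and 2.27% of the 10842 tested genes with one. Windows at another start of ATF3 (chr1:212614768-212615067) and of ASNS (chr7:97872116-97872415) held no such core.

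Matches to the AP-1 site TGACTCA and to the ER stress element, CCAAT and CCAC at a fixed spacing, both searched on both strands and capitalised below, were found in other members:
DDIT3: gcgcgcgcgcaTGACTCAcccacctcctcc
DDIT3: gcggggCCAATGCCGGCGTGCCACtttctg
ATF5: ggagagtgctgTGACTCAtgctggactcta
The DDIT3 stretches are chr12:57520737-57520766 and chr12:57520591-57520620 on the minus strand, and the ATF5 stretch is chr19:49928707-49928736 on the plus strand. Windows at the other ATF5 starts (chr19:49928955-49929254 and chr19:49929995-49930294) held no AP-1 site. AP-1 sites stood in 4.2% of windows and the ER stress element in 0.282%, and in 4.11% and 0.387% of the tested genes with a window. Both searches were added after the values were seen. The CHAC1, ASNS and ATF5 stretches overlap an annotated exon of their own gene. A match is a run of letters and does not show that a factor binds there.

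The libraries held 12236937 to 20388437 counts. FIP1L1 averaged 19.6 ± 0.788 CPM (read counts relative to library size, here after TMM scaling; SD, n = 4) with shRNA 2 and 15.4 ± 1.55 CPM with shRNA 1, against 41.3 ± 2.27 CPM in the control. The 8 myeloid progenitor markers examined, such as KIT and MPO, were read in all 12 libraries, with summed levels of 10900 to 13400 CPM with shRNA 2, 8530 to 10700 CPM with shRNA 1 and 18000 to 20100 CPM in the control. MPO made up most of these sums, with means of 9910 CPM with shRNA 2, 7210 CPM with shRNA 1 and 16200 CPM in the control. The 8 include RUNX1T1, the fusion partner in this line. Of the 8, 2 were higher (CD33 and PTPRC) and 4 lower (RUNX1T1, CD34, MPO and MYB) with shRNA 2. With shRNA 1, 3 were higher (SPI1, PTPRC and MYB) and 5 lower (RUNX1T1, KIT, CD34, MPO and CD33). The largest change with shRNA 1 was that of CD34, at -2.33 (log2), beside -0.55 with shRNA 2. Over all tested genes 50.0% were called with shRNA 2 and 57.3% with shRNA 1. The 13 matched markers of other cell types summed to 138 to 148 CPM with shRNA 2, 41.9 to 49.7 CPM with shRNA 1 and 124 to 153 CPM in the control, nearly all of it EPCAM at 38.2 to 150.0 CPM, while MS4A1, COL1A2, HBB and HBG1 were at 0 throughout. The myeloid sum was lower with both shRNAs than in the control, the other sum was lower with shRNA 1 and lay within the control range with shRNA 2, and their part in the results was not tested. In bulk RNA, fewer cells of a type and less RNA per cell cannot be told apart. TMM factors also moved with the groups, at 0.98 to 1.013 with shRNA 2, 1.05 to 1.088 with shRNA 1 and 0.9146 to 0.9584 in the control.

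The comparison asked how the mRNAs of the ATF4 programme stood with each of the 2 shRNAs that lower FIP1L1. With shRNA 2, ATF5 mRNA rose while ATF4 and ASNS fell, and with shRNA 1, ATF4, DDIT3, CHAC1 and ATF5 mRNA rose while TRIB3 fell. ATF5 was higher than the control with both shRNAs, and ATF4 moved in opposite directions with the 2.

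**Figure D1:**
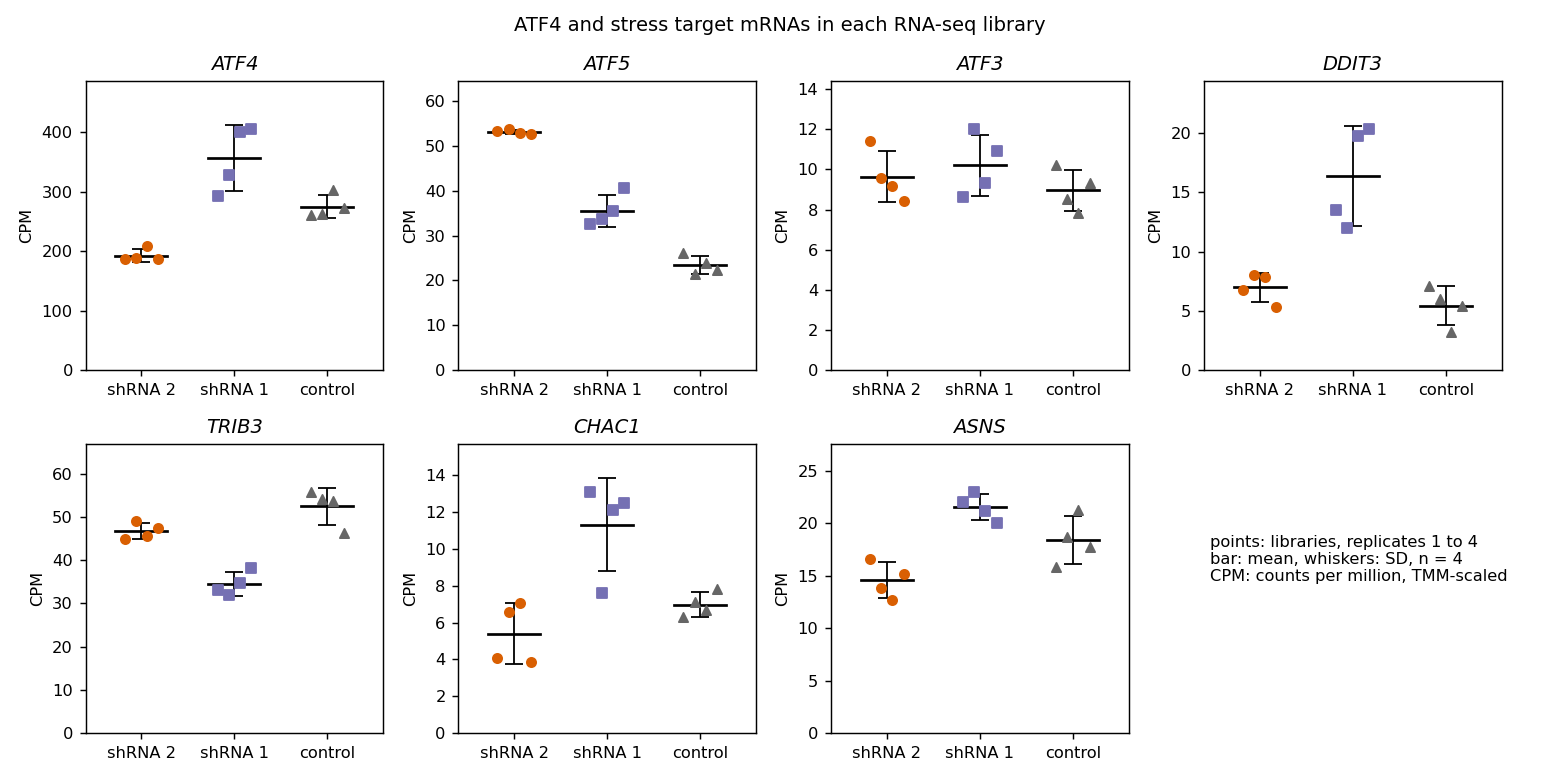
CPM (TMM-scaled, linear axes from 0) of each gene in every RNA-seq library, with points for replicates 1 to 4, a bar for the mean and whiskers for the SD (n = 4). ATF4 lies at 187 to 208 CPM with shRNA 2, 292 to 405 CPM with shRNA 1 and 261 to 303 CPM in the control, and ATF5 shows 3 separate groups.

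ATF4 itself (ENSG00000128272, GRCh38 chromosome 22, 39519695 to 39522685, plus strand) was the most abundant of the 7 per kilobase of exon. Its level was 187, 189, 208 and 187 CPM in shRNA 2 replicates 1 to 4, 292, 328, 400.0 and 405 CPM with shRNA 1, and 261, 263, 303 and 273 CPM in the control. All shRNA 2 libraries lay below all others, whereas shRNA 1 overlapped the control because shRNA 1 replicate 1 was below control replicate 3. The log2 change with shRNA 2 was -0.51 (SE 0.087, edgeR adjusted p = 4.41e-05), a fold of 0.70. With shRNA 1 it was 0.37 (SE 0.087, edgeR adjusted p = 0.000865), a fold of 1.30. When libraries were scaled by their totals alone, an alternative chosen after seeing the data, the shRNA 1 log2 change was 0.57, and the median over all tested genes was 0.213 in place of 0.0203 with TMM. Under that scaling 66.1% of the genes called with shRNA 1 were higher, against 49.9% with TMM. With shRNA 2 the median of all genes under library totals was 0.0823. This scaling moves all genes of a comparison together, so every value given with library totals is to be read against these medians.

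ATF5, the closest relative of ATF4 and an activator of mitochondrial chaperone genes (ENSG00000169136, chromosome 19, 49928702 to 49933935, plus strand), rose with both. It stood at 53.4, 53.7, 52.8 and 52.7 CPM with shRNA 2, at 32.6, 33.6, 35.4 and 40.5 CPM with shRNA 1, and at 26.2, 21.5, 23.8 and 22.3 CPM in the control. The 3 groups did not overlap, and the shRNA 2 libraries were the highest, with an SD of 0.488 CPM. The log2 change was 1.18 (SE 0.090, edgeR adjusted p = 2.31e-10) with shRNA 2 and 0.60 (SE 0.091, edgeR adjusted p = 5.86e-06) with shRNA 1. Exons of NUP62, a nucleoporin gene on the other strand, cover 626 of the 2954 exonic bases of ATF5, and without a stated strand setting reads there cannot be told apart. NUP62 was at 114 ± 2.43 CPM with shRNA 2, 96.1 ± 5.74 CPM with shRNA 1 and 122 ± 2.82 CPM in the control (SD, n = 4), with log2 changes of -0.09 with shRNA 2 (edgeR adjusted p = 0.223) and -0.34 with shRNA 1 (edgeR adjusted p = 5.09e-05). IL4I1, an amino acid oxidase gene also on the other strand, shares 75 bases and was at 1.32 ± 0.557 CPM with shRNA 2, 0.739 ± 0.379 CPM with shRNA 1 and 0.427 ± 0.0682 CPM in the control. Its log2 change was 1.59 with shRNA 2 (edgeR adjusted p = 0.0131) and 0.79 with shRNA 1 (edgeR adjusted p = 0.208), at 4 to 34 counts per library. The part of either gene in the ATF5 counts was not tested.

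ATF3, a stress-induced bZIP repressor (ENSG00000162772, chromosome 1, 212565334 to 212620777, plus strand), passed the test in no comparison. It was at 11.4, 9.58, 9.15 and 8.42 CPM with shRNA 2, 8.63, 12, 9.33 and 10.9 CPM with shRNA 1, and 10.2, 8.54, 7.81 and 9.31 CPM in the control. All 3 groups overlapped. The 95% interval of its log2 change, from the SE on 9 degrees of freedom, ran from -0.25 to 0.46 with shRNA 2 and from -0.16 to 0.54 with shRNA 1 (edgeR adjusted p = 0.609 with shRNA 2 and 0.312 with shRNA 1). Scaled by library totals alone, the shRNA 1 log2 change was 0.38 and passed the test (edgeR adjusted p = 0.0418).

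DDIT3 encodes CHOP, the bZIP factor that ties prolonged endoplasmic reticulum stress to cell death (ENSG00000175197, chromosome 12, 57516588 to 57521737, minus strand), and it had the largest change of the 7 with shRNA 1. Its libraries held 6.78, 7.99, 7.84 and 5.3 CPM with shRNA 2, 13.5, 12, 19.7 and 20.3 CPM with shRNA 1, and 7.1, 5.98, 3.25 and 5.44 CPM in the control. Every shRNA 1 library was above every other library, while shRNA 2 and control overlapped. The log2 change was 0.37 with shRNA 2 (SE 0.223, edgeR adjusted p = 0.181), with an interval from -0.14 to 0.87. With shRNA 1 it was 1.59 (SE 0.216, edgeR adjusted p = 1.64e-06), a fold of 3.01. In the shRNA 1 group, replicates 3 and 4 were the higher pair for DDIT3, ATF4, ATF5 and TRIB3, but not for ATF3, CHAC1 or ASNS. DDIT3 was thinly read, at 47 to 338 counts per library, and 355 of its 1307 exonic bases are shared with MARS1 and 58 with MBD6, both on the other strand. Another 105 are shared with AC022506.1, a gene on the same strand whose ID is absent from the count data. MARS1, a tRNA synthetase gene, was at 159 ± 5.75 CPM with shRNA 2, 155 ± 3.88 CPM with shRNA 1 and 192 ± 3.15 CPM in the control (SD, n = 4). It had log2 changes of -0.27 with shRNA 2 (edgeR adjusted p = 0.000318) and -0.30 with shRNA 1 (edgeR adjusted p = 8.06e-05). MBD6 was at 138 ± 4.72 CPM with shRNA 2, 133 ± 8.44 CPM with shRNA 1 and 104 ± 5.25 CPM in the control. It had log2 changes of 0.41 with shRNA 2 (edgeR adjusted p = 1.13e-05) and 0.36 with shRNA 1 (edgeR adjusted p = 5.66e-05). Without a stated strand setting, reads in the bases shared with MARS1 or MBD6 cannot be told apart. The part of either gene in the DDIT3 counts was not tested.

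TRIB3 encodes a pseudokinase that is induced by ATF4 and CHOP and in turn inhibits them (ENSG00000101255, chromosome 20, 362835 to 397559, plus strand). It measured 44.8, 49.0, 45.6 and 47.5 CPM with shRNA 2, 33.0, 31.9, 34.8 and 38.1 CPM with shRNA 1, and 55.8, 54.1, 53.6 and 46.3 CPM in the control. The shRNA 1 libraries were the lowest and did not overlap the others, while control replicate 4 fell within the shRNA 2 range. The shRNA 1 log2 change was -0.61 (SE 0.084, edgeR adjusted p = 1.47e-06), a fold of 0.66, in the group where ATF4 and DDIT3 rose. With shRNA 2 the log2 change was -0.17 (SE 0.083, edgeR adjusted p = 0.102), and it passed the test when control replicate 4 was left out (-0.22, edgeR adjusted p = 0.037).

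CHAC1, an enzyme that degrades glutathione (ENSG00000128965, chromosome 15, 40952962 to 40956519, plus strand), stood at 4.08, 6.57, 7.07 and 3.84 CPM with shRNA 2, 13.1, 7.59, 12.1 and 12.5 CPM with shRNA 1, and 6.28, 7.09, 6.7 and 7.85 CPM in the control. In the shRNA 1 group 3 libraries were above all others, and replicate 2 lay inside the control range. In the shRNA 2 group 2 libraries were below every control. The log2 change was -0.37 with shRNA 2 (SE 0.213, edgeR adjusted p = 0.155; interval -0.85 to 0.11) and 0.69 with shRNA 1 (SE 0.205, edgeR adjusted p = 0.00625).

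ASNS, asparagine synthetase, makes asparagine from aspartate and glutamine (ENSG00000070669, chromosome 7, 97852118 to 97872542, minus strand). Its values were 16.6, 13.8, 12.7 and 15.2 CPM with shRNA 2, 22.0, 23.0, 21.2 and 20.0 CPM with shRNA 1, and 15.8, 18.7, 21.3 and 17.7 CPM in the control. Of its 4455 exonic bases, 1985 are shared with AC079781.5, a transcript on the same strand whose ID is absent from the count data. Both shRNA groups overlapped the control but not each other. ASNS fell by 0.33 (log2) with shRNA 2 (SE 0.119, edgeR adjusted p = 0.0237), and the call was lost without control replicate 2 or 3 (edgeR adjusted p = 0.0507 and 0.101) or shRNA 2 replicate 2 or 3 (edgeR adjusted p = 0.0683 and 0.0941), with no filter (0.0503) and with library totals (0.0773). With shRNA 1 the log2 change was 0.23 (SE 0.117, edgeR adjusted p = 0.0955), and it passed the test without control replicate 3 (0.31, edgeR adjusted p = 0.04), with upper-quartile scaling (0.33, edgeR adjusted p = 0.0175) and with library totals (0.43, edgeR adjusted p = 0.00271).

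**Figure D2:**
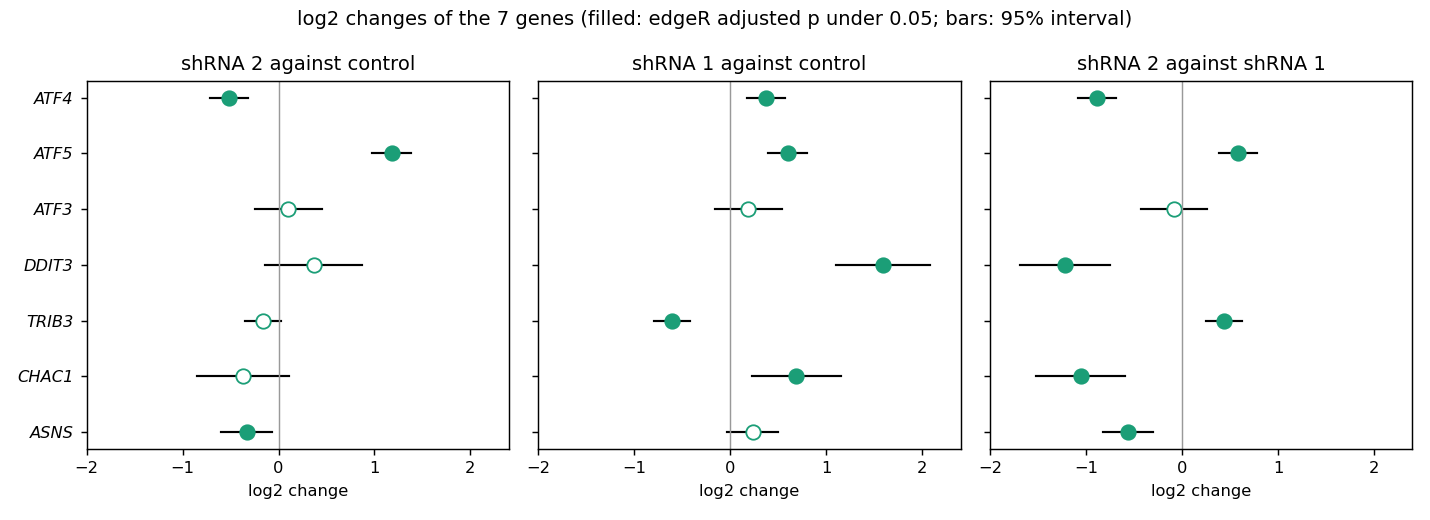
log2 changes of the 7 genes in the 3 comparisons, with bars for the 95% interval and filled points for edgeR adjusted p under 0.05. ATF4 lies left of 0 with shRNA 2 and right of 0 with shRNA 1. Where shRNA 2 is set against shRNA 1, 6 of 7 points are filled, beside 58.7% of all tested genes called.

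With shRNA 2, 3 of the 7 genes were called (ATF5 higher, ATF4 and ASNS lower), where 50.0% of all tested genes were called. With shRNA 1, 5 of the 7 were called (ATF4, ATF5, DDIT3 and CHAC1 higher, TRIB3 lower), where 57.3% of all tested genes were called. These are 42.9% of the 7 with shRNA 2 and 71.4% with shRNA 1, so with so many genes called the counts by themselves do not set the 7 apart. Libraries did not overlap the control for 2 of the 7 with shRNA 2 and 3 of the 7 with shRNA 1, against 50.2% of all tested genes with shRNA 2 and 48.3% with shRNA 1. The median log2 change of the 7 was -0.17 with shRNA 2 and 0.37 with shRNA 1, beside 0.00048 over all tested genes with shRNA 2 and 0.020 with shRNA 1. Both comparisons use the same control libraries.

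The direct comparison of the 2 shRNAs parted 6 of the 7 genes, where 58.7% of all tested genes were called. ATF4 was lower with shRNA 2 than with shRNA 1, with a log2 difference of -0.89 (SE 0.087, edgeR adjusted p = 1.54e-08). DDIT3 differed by -1.22 (log2, edgeR adjusted p = 2.96e-05), CHAC1 by -1.06 (edgeR adjusted p = 0.00012) and ASNS by -0.56 (edgeR adjusted p = 0.000253), all lower with shRNA 2. ATF5 and TRIB3 were higher with shRNA 2, by log2 differences of 0.58 (edgeR adjusted p = 4.5e-06) and 0.44 (edgeR adjusted p = 8.47e-05). The libraries of the 2 shRNAs did not overlap for any of these 6 genes, as held for 52.7% of all tested genes. ATF3 differed by -0.083 (log2, edgeR adjusted p = 0.664), with an interval from -0.43 to 0.26. FIP1L1 was higher with shRNA 2 than with shRNA 1 by a log2 difference of 0.35 (SE 0.099, edgeR adjusted p = 0.00415).

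Per kilobase of annotated exon, the order of mean levels was not the same in the 3 groups. With shRNA 2 it ran ATF4, ATF5, TRIB3, DDIT3, ASNS, CHAC1 and ATF3, at 76.6, 18, 13.6, 5.34, 3.27, 2.62 and 2.38 CPM per kilobase. With shRNA 1 ATF4 led at 142, followed by DDIT3 at 12.5, ATF5 at 12, TRIB3 at 10.0, CHAC1 at 5.5, ASNS at 4.84 and ATF3 at 2.53 CPM per kilobase. In the control TRIB3 came second at 15.3, after ATF4 at 109 and before ATF5 at 7.94, DDIT3 at 4.16, ASNS at 4.12, CHAC1 at 3.39 and ATF3 at 2.22 CPM per kilobase. Neighbours in these orders that do not differ beyond the range of their libraries are ASNS, CHAC1 and ATF3 with shRNA 2, DDIT3, ATF5 and TRIB3 as well as CHAC1 and ASNS with shRNA 1, and DDIT3, ASNS and CHAC1 in the control. Lengths are those of GENCODE 29, which may differ from the annotation behind the counts, so these levels are approximate. The ATF4 pseudogenes of the table held at most 10 counts in any library, against at least 2819 for ATF4, and those of ASNS were listed at 0.

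Upstream start triplets, the feature through which ATF4 is translated under stress, were counted in the leaders. A GENCODE transcript marked principal was used for each gene, and the longest was taken where several were marked alike. In the transcript chosen, ATF4 has 7 upstream ATG triplets in a leader of 882 bases, ATF5 has 2 in 377 bases and DDIT3 has 2 in 209 bases. The RefSeq windows of ATF4 begin at 39520309 and 39520312, downstream of its GENCODE gene start at 39519695. Other ATF4 leaders may thus be shorter, with other counts. TRIB3 has 3, ASNS 2 and ATF3 1, while the CHAC1 transcript chosen has a leader of 20 bases with none. At least 1 upstream ATG stood in 6 of the 7 leaders and in 54.0% of 12249 tested genes with a leader, whose median length was 202 bases. These are counts of letters, and use of these triplets was not measured.

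Among the genes upstream of ATF4, the eIF2 list (20 genes, all tested) had 3 higher and 9 lower with shRNA 2 (8 not called, median log2 change -0.11), and 4 higher and 11 lower with shRNA 1 (5 not called, median -0.24). Over all tested genes 24.7% were higher and 25.3% lower with shRNA 2, and 28.6% were higher and 28.7% lower with shRNA 1. Scaled by library totals the list had 4 higher and 8 lower with shRNA 2, and 7 higher and 8 lower with shRNA 1, while its median less that of all genes was -0.11 with shRNA 2 and -0.26 with shRNA 1 under both TMM and library totals. EIF2S1, the eIF2 subunit that the stress kinases phosphorylate, stood at 56.6, 56.2, 50.9 and 46.8 CPM with shRNA 2, 65.8, 46.7, 52.7 and 54.9 CPM with shRNA 1 and 108, 108, 111 and 98.1 CPM in the control. No library of either shRNA reached the control range, and the log2 change was -1.01 with shRNA 2 (edgeR adjusted p = 2.6e-09) and -0.95 with shRNA 1 (edgeR adjusted p = 4e-09). PPP1R15A, the GADD34 subunit that brings a phosphatase to eIF2 and is itself a target of ATF4, had a log2 change of 0.94 with shRNA 2 (edgeR adjusted p = 2.05e-07) and 1.86 with shRNA 1 (edgeR adjusted p = 1.56e-12). It averaged 37.3 ± 2.44 CPM with shRNA 2 and 70.5 ± 11.4 CPM with shRNA 1, against 19.4 ± 2.12 CPM in the control, with no overlap among the groups. IMPACT, an inhibitor of the amino acid sensing kinase, fell by 0.91 (log2) with shRNA 2 (edgeR adjusted p = 1.8e-08) and by 0.63 with shRNA 1 (edgeR adjusted p = 2.63e-06).

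OMA1, the mitochondrial protease that starts the relay to the haem-regulated kinase, went opposite ways. It was at 3.89 ± 0.704 CPM with shRNA 2 and 11.6 ± 0.792 CPM with shRNA 1, against 7.27 ± 0.48 CPM in the control, a log2 change of -0.89 with shRNA 2 (edgeR adjusted p = 0.000123) and 0.67 with shRNA 1 (edgeR adjusted p = 0.000891). EIF2B4, a subunit of the eIF2 exchange factor, changed by -0.25 (log2) with shRNA 2 (edgeR adjusted p = 0.0408, not called with upper-quartile scaling at 0.0616 or library totals at 0.181) and by 0.29 with shRNA 1 (edgeR adjusted p = 0.0139). The 4 eIF2 kinases were named after their values were seen. EIF2AK3, known as PERK, rose by 0.80 (log2) with shRNA 2 (edgeR adjusted p = 4.29e-06) and stood at -0.20 with shRNA 1 (edgeR adjusted p = 0.155). EIF2AK2, known as PKR, fell by 0.47 (log2) with shRNA 2 and by 0.80 with shRNA 1. EIF2AK4, the amino acid sensor GCN2, stood at -0.14 (log2) with shRNA 2 (edgeR adjusted p = 0.125) and fell by 0.39 with shRNA 1. EIF2AK1, the haem-regulated kinase, stood at -0.06 (log2) with shRNA 2 (edgeR adjusted p = 0.423) and fell by 0.28 with shRNA 1, a call lost with library totals (edgeR adjusted p = 0.193).

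**Figure D3:**
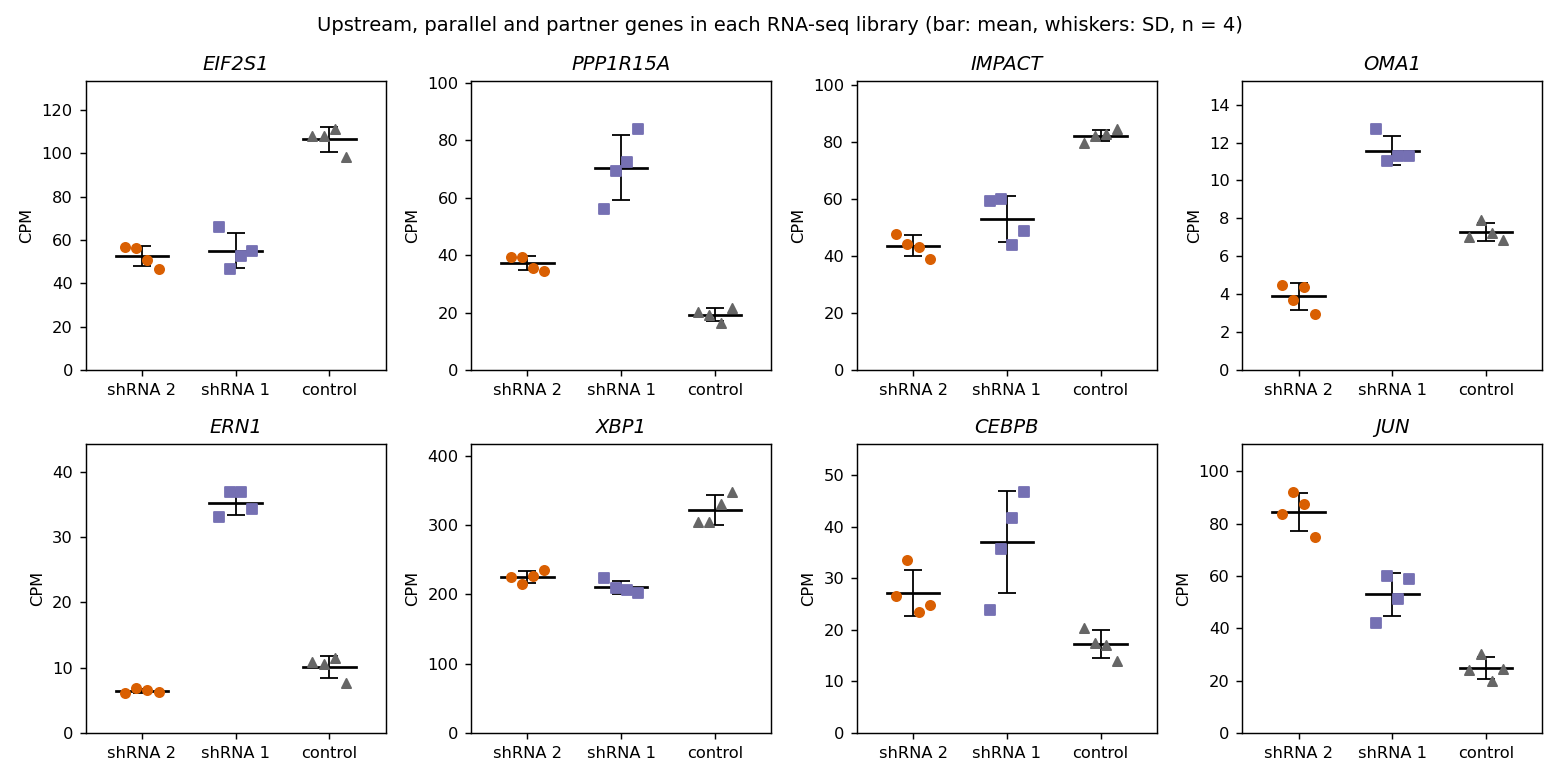
CPM (TMM-scaled, linear axes from 0) of 8 genes around ATF4 in every library, with points for replicates 1 to 4, a bar for the mean and whiskers for the SD (n = 4). EIF2S1 is lower with both shRNAs than in the control, PPP1R15A and JUN are higher with both, and OMA1 and ERN1 lie on opposite sides of the control.

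The list of bZIP factors that can pair with ATF4 or share its sites also holds CEBPZ, which is not a bZIP factor despite its symbol. Of the list, 28 of 31 passed the filter. With shRNA 2, 11 were higher and 5 lower (12 not called, median log2 change 0.18), and with shRNA 1, 11 were higher and 5 lower (12 not called, median 0.10). CEBPZ was 1 of the 5 lower with shRNA 2 (log2 change -0.47, edgeR adjusted p = 5.28e-05) and was not called with shRNA 1. The called share was 57.1% with each shRNA, beside 50.0% of all tested genes with shRNA 2 and 57.3% with shRNA 1. With library totals 12 were higher and 4 lower with shRNA 2, and 15 were higher and 3 lower with shRNA 1, with medians less that of all genes of 0.18 with shRNA 2 and 0.08 with shRNA 1, as with TMM. CEBPB, a direct partner of ATF4, was at 27.1 ± 4.51 CPM with shRNA 2 and 36.9 ± 9.86 CPM with shRNA 1, against 17.2 ± 2.68 CPM in the control, and rose by 0.66 (log2) with shRNA 2 (edgeR adjusted p = 0.00568) and by 1.11 with shRNA 1 (edgeR adjusted p = 4.84e-05). The AP-1 factor JUN was at 83.5, 92.1, 87.5 and 74.9 CPM with shRNA 2, 42.0, 60.0, 51.2 and 58.7 CPM with shRNA 1 and 24.0, 30.3, 20.0 and 24.5 CPM in the control, 3 groups without overlap. Its log2 change was 1.78 with shRNA 2 (edgeR adjusted p = 1.62e-10) and 1.11 with shRNA 1 (edgeR adjusted p = 1.06e-07). FOS, the other AP-1 subunit named, was low, at 3.63 ± 1.09 CPM with shRNA 2 and 8.56 ± 2.26 CPM with shRNA 1, against 1.48 ± 0.182 CPM in the control, log2 changes of 1.27 with shRNA 2 and 2.52 with shRNA 1. NFE2L1, the factor that restores proteasome genes, had log2 changes of 0.49 with shRNA 2 (edgeR adjusted p = 8.99e-07) and -0.92 with shRNA 1 (edgeR adjusted p = 2.66e-11). ATF7 had log2 changes of 0.27 with shRNA 2 (edgeR adjusted p = 0.0126) and -0.41 with shRNA 1 (edgeR adjusted p = 0.000501).

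The list of other known ATF4 targets, 51 genes written from memory, had 47 tested. With shRNA 2, 8 were higher and 29 lower (10 not called, median log2 change -0.42), and with shRNA 1, 13 were higher and 25 lower (9 not called, median -0.25). Calls made up 78.7% of the list with shRNA 2 and 80.9% with shRNA 1. Over all tested genes 50.0% were called with shRNA 2 and 57.3% with shRNA 1, about evenly higher and lower. Scaled by library totals the counts were 8 higher and 27 lower with shRNA 2, and 17 higher and 18 lower with shRNA 1 (median -0.05). The list median less that of all genes was -0.42 with shRNA 2 under both scalings, and with shRNA 1 it was -0.264 with library totals and -0.265 with TMM. ALDH1L2, a mitochondrial folate enzyme, averaged 21.0 ± 2.82 CPM with shRNA 2 and 32.3 ± 4.38 CPM with shRNA 1, against 112 ± 9.37 CPM in the control, and fell by 2.41 (log2) with shRNA 2 (edgeR adjusted p = 1.52e-14) and by 1.79 with shRNA 1 (edgeR adjusted p = 6.21e-13). HMOX1, haem oxygenase, was at 4.16 ± 1.15 CPM with shRNA 2 and 3.68 ± 1.15 CPM with shRNA 1, against 0.531 ± 0.221 CPM in the control, with log2 changes of 2.91 with shRNA 2 (edgeR adjusted p = 3.81e-07) and 2.73 with shRNA 1 (edgeR adjusted p = 7e-07). HMOX1 held only 3 to 14 counts per control library, so the size of its change is imprecise, and it passed the filter through the shRNA groups. CBS, counted as higher with shRNA 1, averaged 0.194 CPM in the control, 0.357 CPM with shRNA 2 and 1.79 CPM with shRNA 1. It passed the filter through the shRNA 1 group. The counts of higher genes thus include genes that were kept because they were high in an shRNA group. AKNA, an AT-hook protein, was at 268 ± 5.77 CPM with shRNA 2 and 181 ± 9.91 CPM with shRNA 1, against 72.8 ± 3.04 CPM in the control, log2 changes of 1.88 with shRNA 2 and 1.31 with shRNA 1.

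Opposite directions were seen in PYCR1 and NARS1, as in ATF4, while the other listed targets called with both shRNAs went the same way with each. PYCR1, of proline synthesis, averaged 0.752 ± 0.339 CPM with shRNA 2 and 4.58 ± 0.721 CPM with shRNA 1, against 1.47 ± 0.614 CPM in the control, log2 changes of -0.97 with shRNA 2 (edgeR adjusted p = 0.0352, and 0.054 with library totals) and 1.62 with shRNA 1 (edgeR adjusted p = 0.000242). PYCR1 held only 9 to 23 counts per library with shRNA 2 and 10 to 39 in the control, so the size of its changes is imprecise. NARS1, asparaginyl-tRNA synthetase, had log2 changes of -0.38 with shRNA 2 (edgeR adjusted p = 1.61e-05) and 0.20 with shRNA 1 (edgeR adjusted p = 0.00814).

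**Figure D4:**
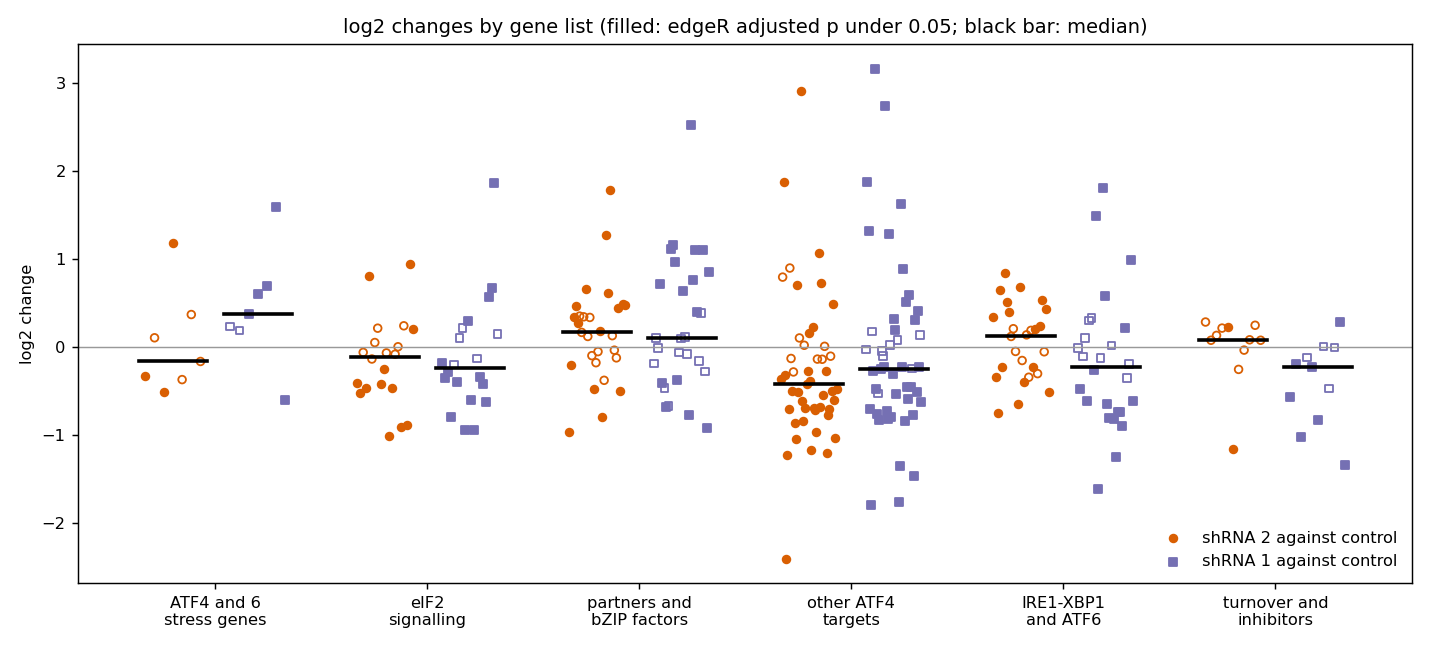
log2 change of each tested gene against the control, by list, with circles for shRNA 2, squares for shRNA 1, filled symbols for edgeR adjusted p under 0.05 and black bars for list medians. The other ATF4 targets have a median of -0.42 with shRNA 2 and -0.25 with shRNA 1, where the median of all tested genes is 0.00048 with shRNA 2 and 0.020 with shRNA 1.

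The branches of the unfolded protein response that run beside ATF4, through IRE1 with XBP1 and through ATF6, had 26 genes, all tested. With shRNA 2, 10 were higher and 7 lower (9 not called, median 0.13), and with shRNA 1, 5 were higher and 12 lower (9 not called, median -0.23). Calls made up 65.4% of the list with each shRNA, beside 50.0% of all tested genes with shRNA 2 and 57.3% with shRNA 1. With library totals there were 13 higher and 5 lower with shRNA 2, and 9 higher and 11 lower with shRNA 1, while the median less that of all genes was 0.13 with shRNA 2 and -0.25 with shRNA 1 under both scalings. ERN1, the IRE1 sensor, was at 6.45 ± 0.328 CPM with shRNA 2 and 35.3 ± 1.94 CPM with shRNA 1, against 10.1 ± 1.73 CPM in the control, with log2 changes of -0.65 with shRNA 2 (edgeR adjusted p = 0.000322) and 1.80 with shRNA 1 (edgeR adjusted p = 1.93e-11). XBP1, the factor whose mRNA IRE1 splices, fell by 0.52 (log2) with shRNA 2 (edgeR adjusted p = 3.03e-07) and by 0.61 with shRNA 1 (edgeR adjusted p = 1.41e-08). HERPUD1, of the disposal of misfolded protein, rose by 0.68 (log2) with shRNA 2 and by 0.58 with shRNA 1, and SYVN1, a ubiquitin ligase of the reticulum, rose by 0.43 with shRNA 2 and by 0.99 with shRNA 1. PDIA6, a disulphide isomerase, had log2 changes of 0.21 with shRNA 2 (edgeR adjusted p = 0.0127) and -0.74 with shRNA 1 (edgeR adjusted p = 2.48e-09).

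The genes whose pattern over the 12 libraries was most like each member were ranked by the mean absolute difference in log2 CPM after subtracting each gene's control mean, among 10918 genes of at least 5 CPM. GRINA and SCRN2 were nearest to ATF4, at 0.047 and 0.08, where the median gene stood at 0.43. NHERF1 and AGFG2 were nearest to ATF5 (0.065 and 0.071), SAMD1 and TBCB to TRIB3 (0.044 and 0.067), YOD1 and NARS1 to ASNS (0.085 and 0.086) and GSPT2 and C2orf69 to ATF3 (0.10 and 0.104). The nearest to DDIT3, ABTB1 and GOLGA8A, and to CHAC1, SLC2A11 and LINC01410, were farther off, at 0.174 and 0.177 and at 0.171 and 0.173. Within the 7, the least distant pair was ATF4 and ASNS at 0.194, followed by ATF4 and CHAC1 at 0.28, and the most distant was DDIT3 and TRIB3 at 1.031. ATF4 was 0.348 from ATF3. It was 0.484 from TRIB3, 0.68 from ATF5 and 0.842 from DDIT3, each farther than the median gene stood from ATF4 (0.43).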

How the data were processed

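RNA-seq of total RNA was made with a kit (NEBNext Ultra) whose name as given does not mark strand. The authors deposited raw read counts for each Ensembl gene. STAR 2.7.3a, cutadapt 2.6, DESeq2 and hg19 are named, with no roles, per the submitters' processing notes. For the counting itself, no tool, annotation or strand setting was given in the sources used here. A second assay of poly(A) sites (3'READS) was not used here, since its sites carry no gene names. 

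All 12 libraries entered 1 edgeR 4.0.16 quasi-likelihood fit (R 4.3.3) with a term per group, TMM scaling, filterByExpr and 9 residual degrees of freedom. All tests were two-sided and p-values were adjusted by Benjamini-Hochberg over 15834 genes at 0.05. The fit was tested on simulated data with 200 changed genes. That is far fewer than the 7912 genes called with shRNA 2, so the simulation does not check the fit or scaling where so many genes change. Alternatives were RLE, upper-quartile or no scaling, no filter, DESeq2 1.42.0, the 2 compared groups only, a replicate block and leaving out each library. Intervals cover 95%. Depth was 12236937 to 20388437 counts per library, and counting precision does not include other error.

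The 7 genes and all lists were chosen with earlier results of these data known. List genes were named if called with both shRNAs: up to 3 in 1 direction with the largest smaller change, up to 2 in opposite directions with the largest difference, with a mean of at least 1 CPM. Symbols came from a table of current names matched by Ensembl ID, GRCh38 positions from GENCODE 29, and promoter sequences from RefSeq (GRCh38.p14), whose windows matched all 7 genes.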

Additional observations from a re-analysis of the deposited data

Results flagged for a closer look

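In 1 of 21 gene and group combinations a library lay apart from the other 3, about what chance gives at 1 in 20. It was shRNA 2 replicate 3 for ATF4, at 208 CPM where the others were at 187 to 189 CPM. It was still below every control library.

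The change against the control differed between the 2 shRNAs for 6 genes, tested as shRNA 2 minus shRNA 1 in the edgeR fit. In the same comparison 58.7% of all tested genes were called, so this count does not set the genes apart. The log2 differences were -0.89 for ATF4 (edgeR adjusted p = 1.54e-08), -1.22 for DDIT3 (2.96e-05), -1.06 for CHAC1 (0.00012) and -0.56 for ASNS (0.000253). They were 0.58 for ATF5 (edgeR adjusted p = 4.5e-06) and 0.44 for TRIB3 (8.47e-05).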

How the results depend on the processing

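Over 252 values with 1 library left out, 245 kept direction and call, 2 gained a call, 4 lost one and 1 turned. Over 147 values under the other alternatives, 142 kept both, 3 gained and 2 lost a call. The turned value was ATF3 in shRNA 2 against shRNA 1, which ran from -0.17 to 0.010 and was 0.010 without shRNA 1 replicate 2; the cause was not tested. Of the 7 genes, 2 to 4 were called with shRNA 2, 5 to 7 with shRNA 1 and 6 between the shRNAs under every alternative run. With a replicate block, 3 were called with shRNA 2, 5 with shRNA 1 and 6 between the shRNAs, and no call of the 7 changed (ATF4 with shRNA 1 was at 0.367). Same-numbered libraries correlated at -0.0781 to 0.261 in their deviations, with 5 of 12 pairs over 0.1. In 4 of the 12 the same-numbered library was the best match. Correlations this weak and mixed do not settle whether the numbers pair the libraries. With the replicate block, the SE with shRNA 2 was smaller for ATF4 (0.0707 against 0.0872) and larger for each other gene of the 7. The SEs of DDIT3 and CHAC1 against the control, 0.205 to 0.223, were the largest of the 7, as were their coefficients of biological variation (0.194 for DDIT3 and 0.188 for CHAC1, against 0.136 for ATF3, which has a like level).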

Other observations

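A list drawn up around the turnover and inhibition of ATF4 had 11 tested genes of 12. Not every member degrades or inhibits ATF4 (EP300 and KDM4C do not), so the counts mix roles. With shRNA 2, 1 was higher and 1 lower (9 not called), and with shRNA 1, 1 was higher and 6 lower (4 not called). Calls made up 18.2% of the list with shRNA 2 and 63.6% with shRNA 1, beside 50.0% and 57.3% of all tested genes. With library totals these were 5 higher and 1 lower with shRNA 2, and 1 higher and 4 lower with shRNA 1, while the median less that of all genes was 0.08 with shRNA 2 and -0.25 with shRNA 1 under both scalings. FBXW11, the adaptor of a ubiquitin ligase that recognises phosphorylated ATF4, was at 32.3 ± 2.66 CPM with shRNA 2 and 40.6 ± 3.04 CPM with shRNA 1, against 72.0 ± 6.33 CPM in the control (SD, n = 4). The log2 change was -1.16 with shRNA 2 (edgeR adjusted p = 1.62e-10) and -0.83 with shRNA 1 (edgeR adjusted p = 1.86e-08). EP300, an acetyltransferase that binds ATF4, had log2 changes of 0.23 with shRNA 2 (edgeR adjusted p = 0.00179) and -0.23 with shRNA 1 (edgeR adjusted p = 0.00127, lost with library totals at 0.572). EP300 was thus the 1 listed gene higher with shRNA 2, and 1 of the 6 lower with shRNA 1. Of the TRIB3 relatives, named after their values were seen, TRIB2 stood at a log2 change of 0.076 with shRNA 2 (edgeR adjusted p = 0.713) and fell by 1.34 with shRNA 1 (edgeR adjusted p = 2.49e-07). TRIB1 stood at 0.25 with shRNA 2 (edgeR adjusted p = 0.0684) and 0.29 with shRNA 1 (edgeR adjusted p = 0.0308), and differed by -0.04 between the shRNAs (edgeR adjusted p = 0.78).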
